A study of Mus musculus with 9 samples.

Results

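Fatty acid oxidation and ketogenesis were followed through 34 genes chosen by function, namely the enzymes, carriers and regulators of mitochondrial and peroxisomal β-oxidation with 1 enzyme of ketone body formation. Each gene was read from the probe set, the group of probes on an array that stands for 1 transcript, with its symbol. Of the 34 genes, 32 had a probe set in the annotation of the arrays, each exactly 1, among 19494 genes with a probe set and 22142 probe sets in all, and all 32 passed the filter on low values described with the test. Acsl1 and Etfb were not analysed here.

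Livers of 9 C57BL/6 mice, 6 weeks old by the labels and female by the study's methods, were each measured on 1 array, 15 days after injection, in 3 groups of 3 mice. Mock mice were left without injection, though their titles read mock-treated. The AAV-IFNα group received intravenously an adeno-associated virus, of serotype 8 by the study's methods, that carries mouse IFNα1 under the EF1α promoter. The combination group received the same vector together with AAV-L37pA, a vector for L37pA, a peptide that mimics apolipoprotein A-I, under the same promoter. The EF1α promoter is not restricted to hepatocytes. Neither AAV-L37pA by itself nor a vector without a transgene was measured, and the total amount of vector was larger in the combination group. Each treated group thus differed from Mock in both transgene and vector injection, and the design does not separate these. Likewise, the combination differed from AAV-IFNα in both L37pA and the added amount of vector. Differences between the treated groups can therefore not be assigned to L37pA alone.

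Fatty acids enter the mitochondrion as carnitine esters and are cut by β-oxidation in repeated rounds of dehydrogenation, hydration, dehydrogenation and thiolysis. Peroxisomes shorten very long and branched chains first, and hepatocytes turn part of the acetyl-CoA into ketone bodies during fasting. The nuclear receptor PPARα, which binds DNA with RXR at direct repeats called DR1, raises many of these genes in the fasted mouse liver. Whether the mice had been fasted is not stated in the sources used here.

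Livers of the AAV-IFNα group held less Abcd2, Acaa1b and Pdk4 RNA than Mock livers, by 1.66-fold, 1.81-fold and 1.64-fold. Abcd2 was also lower in the combination, by 1.70-fold. In whole liver, fewer cells of a type and less RNA per cell cannot be told apart. No other gene of the 32 passed the test in any comparison, and none passed it between the combination and AAV-IFNα. The 3 genes lower with AAV-IFNα made up 9.38% of the 32, where 5.06% of all 14715 probe sets tested were called lower, and none of the 32 was called higher, where 11.2% of all were. In the combination 1 of 32 was called lower than Mock (1.03% of all) and none higher (4.19% of all), and against AAV-IFNα no gene was called lower (2.2% of all) or higher (0.394% of all). At an unadjusted p under 0.05, 9, 2 and 7 of the 32 genes passed in AAV-IFNα against Mock, the combination against Mock and the combination against AAV-IFNα, beside 31.9%, 22.5% and 11.8% of all probe sets. The B-statistic above 0, which the study's methods used as threshold, called none of the 32 in any of the 3 comparisons, beside 6.03%, 2.4% and 1.78% of all probe sets.

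Levels are the authors' log2 values after RMA, a method that corrects the background, normalizes the arrays and summarises probes, so a log2 difference of 1 is a doubling. A probe set was tested if its value was above 5 in at least 2 samples of 1 condition, with limma on all 9 arrays in 1 fit, and was called at a Benjamini-Hochberg adjusted p under 0.05 over all 14715. Both comparisons with Mock share the Mock arrays, and the combination against AAV-IFNα shares arrays with each, so the values are given side by side. The 95% interval of a difference, not adjusted for the number of tests, extended by a median of 0.39 on either side over the 32 genes. Smaller differences were mostly out of reach with 3 arrays in a group. Larger ones could also miss the adjusted threshold, as Bdh1 did at -0.62 and Vnn1 at -1.50 with AAV-IFNα.

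Most of the 32 genes lay lower with AAV-IFNα, although few by enough to be called. Their log2 differences from Mock ran from -1.50 (Vnn1) to 0.36 (Pex11a), with a median of -0.29 beside -0.02 over all probe sets tested, and 28 of 32 were below 0 (87.5%, beside 52.5% of all). The combination minus Mock had a median of 0.01 (0.00 over all), with 15 of 32 below 0 (46.9%, beside 49.8% of all). The combination minus AAV-IFNα had a median of 0.25 (0.01 over all) and ran from -0.18 to 1.43, with 30 of 32 above 0. The 32 genes were read from the same 9 livers, so these counts are not over independent observations. No test was made of the list as a whole.

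**Figure D1:**
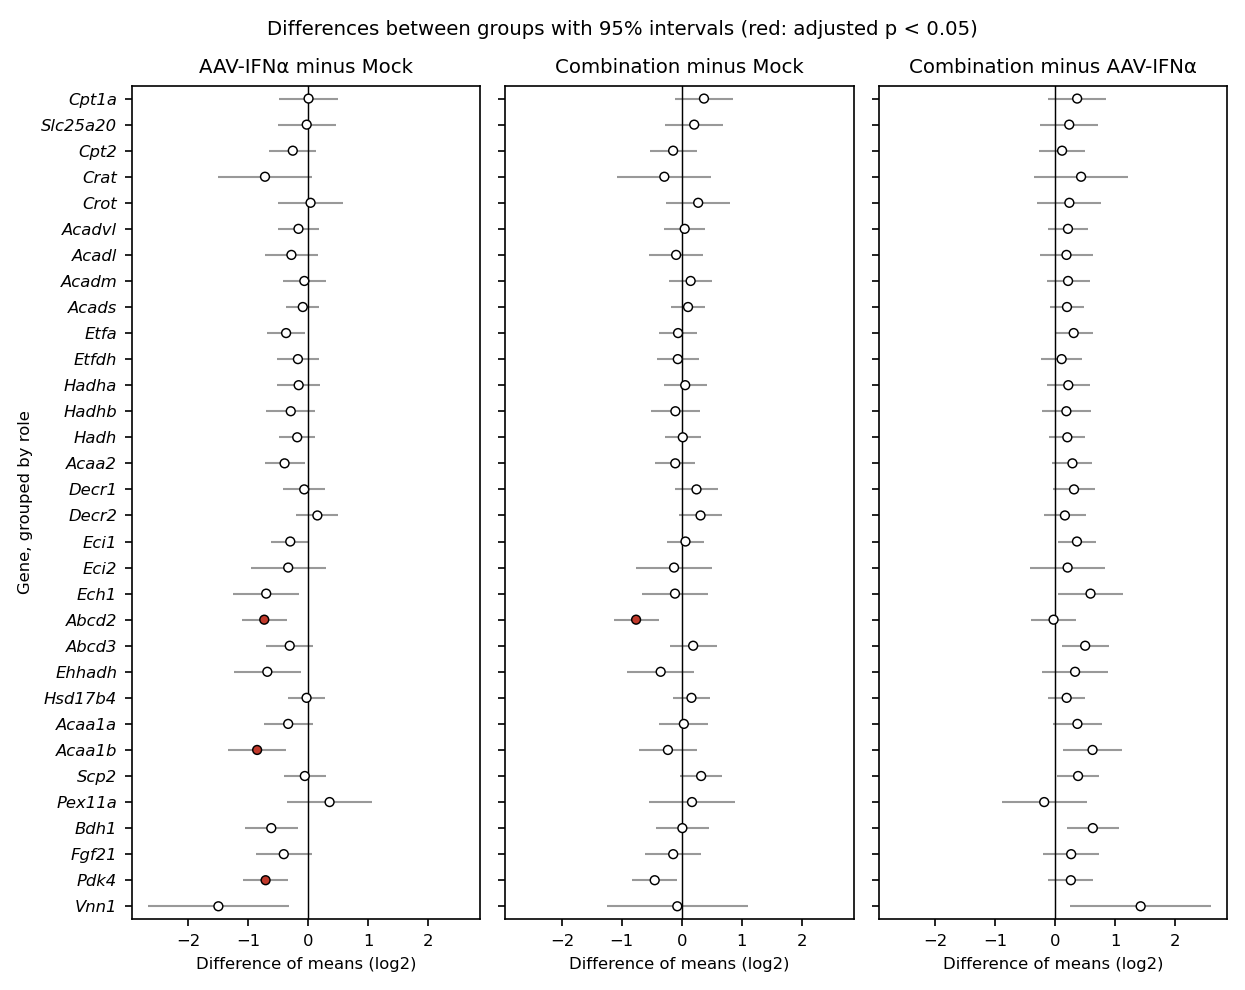
Difference of group means (log2, x axis) for each of the 32 genes in the 3 comparisons, with 95% intervals from limma. Red points passed an adjusted p under 0.05, which were Abcd2, Acaa1b and Pdk4 in AAV-IFNα against Mock and Abcd2 in the combination against Mock.

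The arrays of the AAV-IFNα group lay entirely below those of Mock in 12 of 32 genes (37.5%), where 16.4% of all probe sets did so, and entirely above in none (19.6% of all). For the combination against Mock the groups did not overlap in 1 gene, Abcd2, which was below (12.5% of all below and 15.3% above). The combination arrays lay entirely above those of AAV-IFNα in 8 genes (25%), where 7.4% of all probe sets did so, and below in none (10.1% of all).

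The spread between mice differed among the groups in these genes. The mean log2 value over the 32 genes was 9.70, 9.12 and 9.48 in the Mock mice, 9.11, 9.13 and 9.09 with AAV-IFNα, and 9.85, 9.17 and 9.24 in the combination. Mock replicate 2 and combination replicates 2 and 3 thus lay near the AAV-IFNα mice, while combination replicate 1 stood above all 3 Mock mice. Combination replicate 1 was the highest of its group in 32 of 32 genes (39% of all probe sets), Mock replicate 1 the highest Mock array in 27 (31.8% of all), and Mock replicate 2 the lowest Mock array in 29 (33.3% of all). The median SD within a group over the 32 genes was 0.26 in Mock, 0.080 with AAV-IFNα and 0.30 in the combination, beside 0.17, 0.16 and 0.15 over all probe sets.

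**Figure D2:**
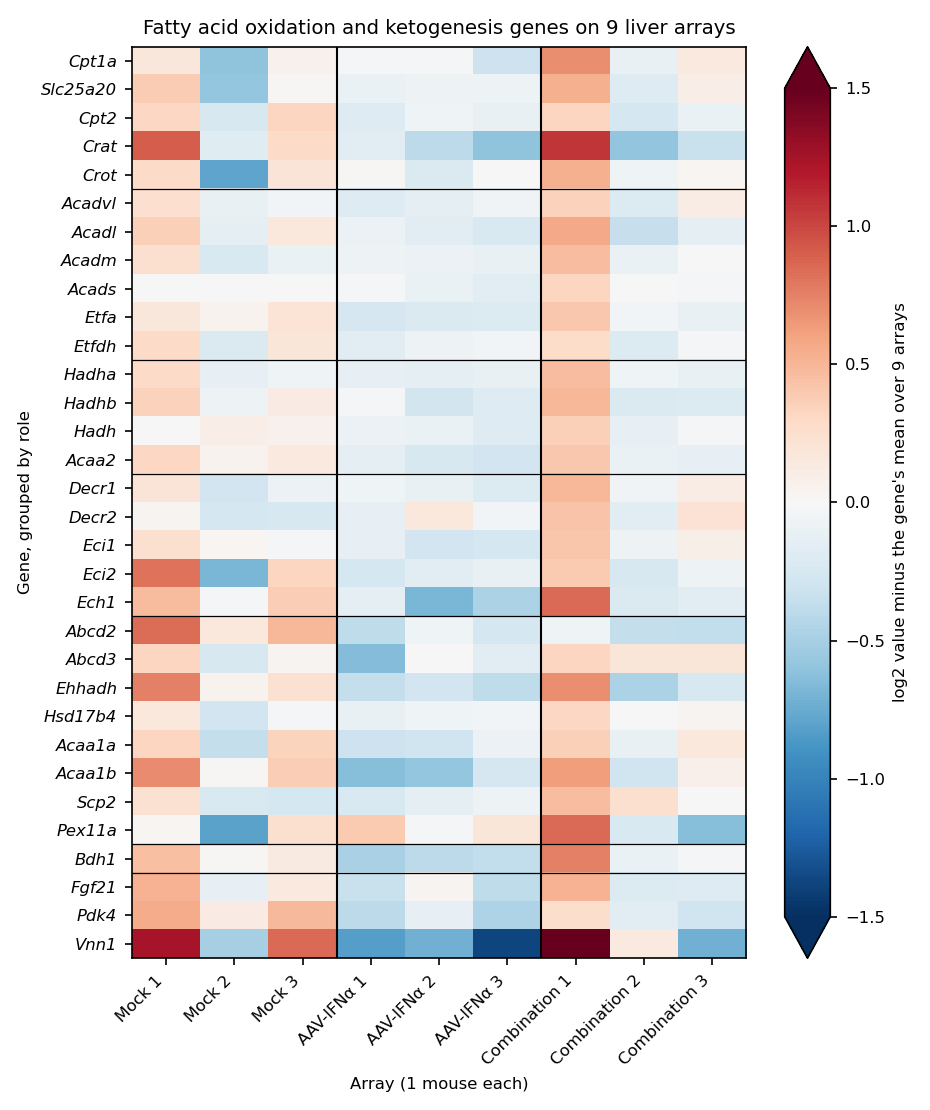
Log2 value of each of the 32 genes (rows, grouped by role) on each of the 9 arrays (columns), minus the mean of the gene over the 9 arrays, with red above and blue below that mean. Combination replicate 1 was the highest of its group in all 32 genes, and Mock replicate 2 was the lowest Mock array in 29.

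The count of calls against Mock moved with single arrays. Without combination replicate 1, whose values enter the shared estimate of the spread, 9 genes were lower with AAV-IFNα than in Mock at unchanged differences, namely Abcd2, Acaa1b, Pdk4, Acaa2, Bdh1, Ech1, Ehhadh, Etfa and Vnn1, while 5.22% of all probe sets were called lower. Without Mock replicate 2 there were 6 (Abcd2, Acaa1b, Pdk4, Acaa1a, Eci2 and Vnn1), beside 4.52% of all. Only Abcd2 was called without Mock replicate 1 (3.11% of all) or Mock replicate 3 (3.34% of all), and no gene without AAV-IFNα replicate 1 (2.61% of all). For the combination against Mock, the median over the 32 genes went from 0.01 to -0.21 without combination replicate 1, with 24 of 32 below 0. For the combination against AAV-IFNα it went from 0.25 to 0.07, with 24 of 32 above 0.

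**Figure D3:**
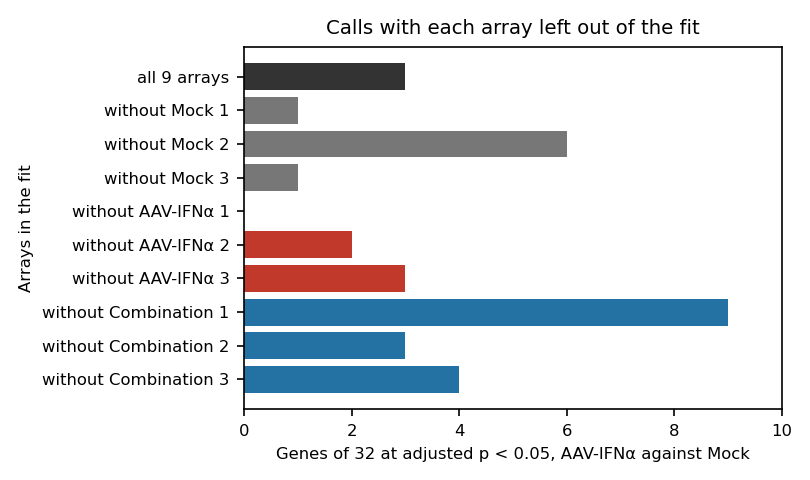
Number of the 32 genes called at an adjusted p under 0.05 in AAV-IFNα against Mock (x axis) with all 9 arrays and with each array left out in turn. The count was 3 with all arrays, 0 without AAV-IFNα replicate 1 and 9 without combination replicate 1.

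Levels of other cells' markers also differed between the groups. The 8 hepatocyte markers with a probe set (of 10 listed, such as Alb and Ttr) had mean log2 values from 12.63 to 12.72 over the 9 arrays, with none called in any comparison. Alb was the highest value on every Mock and combination array, from 13.57 to 13.64. At such high levels differences may be compressed, so these values do not show that the share of hepatocytes was constant. Of 6 monocyte markers, 5 were tested, of which 3 were called higher with AAV-IFNα and 1 (Ly6c2) in the combination. Their mean log2 value went from 4.94 to 5.01 in Mock to between 6.10 and 6.95 with AAV-IFNα and between 5.69 and 5.95 in the combination. Of 6 Kupffer cell markers, 3 were higher in either treated group, with means from 7.32 to 7.69 in Mock, 8.45 to 8.59 with AAV-IFNα and 8.13 to 8.52 in the combination. Of 5 NK cell markers tested 3 were higher with AAV-IFNα and 2 in the combination, and of 3 T cell markers tested 2 and none. Over all probe sets, 11.2% were called higher with AAV-IFNα and 4.19% in the combination. Markers of sinusoidal endothelium were called higher in 2 and lower in 1 of 5 cases with AAV-IFNα, and 2 of 4 stellate cell markers tested were lower. No B cell marker passed the filter. Ncr1, Cd3g and Ccr2 passed it only through the AAV-IFNα arrays, and Ly6c2 and Itgam only through the treated groups. These genes were thus tested because they were high there, and their calls carry no weight of their own. All 3 monocyte markers called higher with AAV-IFNα were among them. Combination livers fell below AAV-IFNα livers in 4 of 5 NK cell markers tested, 2 of 5 monocyte markers and 1 of 6 Kupffer cell markers (Adgre1), beside 2.2% of all probe sets. These counts include Ncr1 and, as the only monocyte markers, Ly6c2 and Itgam, whose calls again carry no weight of their own. The part of these cells in the differences reported here was not tested.

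**Figure D4:**
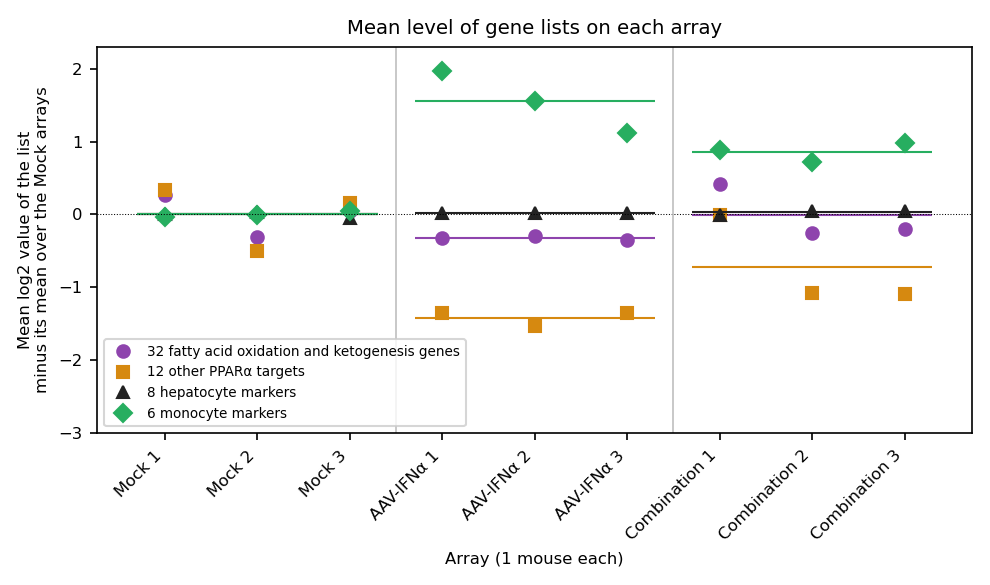
Mean log2 value of 4 gene lists on each array (y axis), minus the mean of the list over the Mock arrays, with horizontal lines at group means. Hepatocyte markers varied least, from 12.63 to 12.72, at high levels where differences may be compressed. The fatty acid oxidation genes of the AAV-IFNα arrays lay level with Mock replicate 2 and highest on combination replicate 1, the other PPARα targets were lowest with AAV-IFNα, and the mean of the monocyte markers was higher in both treated groups, where in the combination only Ly6c2 was called.

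None of the 5 listed genes of fatty acid activation and entry into the mitochondrion that had a probe set was called. Cpt1a encodes the liver carnitine palmitoyltransferase that governs this step, and it had log2 values of 9.57, 8.80 and 9.46 in Mock, 9.38, 9.38 and 9.09 with AAV-IFNα, and 10.10, 9.30 and 9.55 in the combination. The groups overlapped, with differences of 0.01 with AAV-IFNα (95% interval -0.48 to 0.49, adjusted p = 0.99) and 0.37 in the combination (-0.11 to 0.86, adjusted p = 0.35). The carrier Slc25a20, which exchanges acylcarnitine for carnitine across the inner membrane, and Cpt2, which releases the acyl-CoA inside, differed from Mock by -0.03 and -0.26 with AAV-IFNα (adjusted p = 0.95 and 0.34), compared with 0.21 and -0.14 in the combination (adjusted p = 0.62 and 0.68).

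Of the other carnitine transferases, Crot, which acts on medium chains leaving the peroxisome, differed by 0.04 with AAV-IFNα (adjusted p = 0.93). Crat, which acts on short chains, spread widely, with log2 values of 7.94, 6.85 and 7.32 in Mock, 6.87, 6.64 and 6.43 with AAV-IFNα, and 8.10, 6.44 and 6.70 in the combination. Its difference of -0.72 with AAV-IFNα had a 95% interval from -1.50 to 0.06 and did not pass the test (adjusted p = 0.19). On Mock replicate 2 all 5 genes of this step lay below the Mock mean.

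Of the flavoproteins that open each round of mitochondrial oxidation, none was called. Acadvl, Acadl, Acadm and Acads encode the acyl-CoA dehydrogenases for very long, long, medium and short chains. With AAV-IFNα they differed from Mock by -0.16, -0.28, -0.07 and -0.09 (adjusted p = 0.49, 0.37, 0.81 and 0.65), and in the combination by 0.05, -0.09, 0.15 and 0.11 (adjusted p = 0.88, 0.82, 0.63 and 0.67). Acads varied least in Mock, at 8.17, 8.16 and 8.17, which lay above all 3 AAV-IFNα arrays (8.07 ± 0.08, SD, n = 3) by a narrow margin, while combination replicate 1 stood alone at 8.49 over 8.16 and 8.16.

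Electrons from these dehydrogenases pass through Etfa, a subunit of the electron transfer flavoprotein, to Etfdh, which hands them to ubiquinone. Etfa had log2 values of 10.80, 10.68 and 10.83 in Mock, 10.37, 10.41 and 10.42 with AAV-IFNα, and 11.03, 10.58 and 10.51 in the combination. Each AAV-IFNα array lay below every Mock and every combination array. The difference from Mock was -0.37 (standard error 0.15), which missed the threshold (adjusted p = 0.10), and the combination stood 0.31 over AAV-IFNα (adjusted p = 0.43). Once combination replicate 1 was left out Etfa passed against Mock (adjusted p = 0.049), as it did with another quantile normalization (-0.49, adjusted p = 0.042). Etfdh differed from Mock by -0.17 with AAV-IFNα (adjusted p = 0.48) and -0.07 in the combination (adjusted p = 0.84).

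None of the 4 genes of the later mitochondrial steps was called. Hadha and Hadhb encode both subunits of the trifunctional protein, which hydrates, oxidises and cleaves long chains, Hadh the dehydrogenase for shorter chains, and Acaa2 a thiolase. Acaa2 measured 11.95, 11.69 and 11.78 in Mock, 11.48, 11.39 and 11.35 with AAV-IFNα, and 12.04, 11.53 and 11.51 in the combination, so the AAV-IFNα arrays lay below all others. Its difference from Mock was -0.40 (95% interval -0.73 to -0.06, adjusted p = 0.098), and it was called only without combination replicate 1 (adjusted p = 0.047). Hadha, Hadhb and Hadh differed from Mock by -0.16, -0.29 and -0.18 with AAV-IFNα (adjusted p = 0.53, 0.31 and 0.38), compared with 0.06, -0.11 and 0.02 in the combination (adjusted p = 0.87, 0.78 and 0.95).

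Hadha and Hadhb are transcribed in opposite directions from neighbouring starts, and the stretch between the starts is shown because 1 piece of DNA serves as promoter of both genes. In the RefSeq promoters of GRCm38.p6 the starts lie 272 bases apart, at chr5:30154981-30155252 (plus strand), and the 228 bases in capitals lie within 250 bases upstream of both.
Hadha-Hadhb: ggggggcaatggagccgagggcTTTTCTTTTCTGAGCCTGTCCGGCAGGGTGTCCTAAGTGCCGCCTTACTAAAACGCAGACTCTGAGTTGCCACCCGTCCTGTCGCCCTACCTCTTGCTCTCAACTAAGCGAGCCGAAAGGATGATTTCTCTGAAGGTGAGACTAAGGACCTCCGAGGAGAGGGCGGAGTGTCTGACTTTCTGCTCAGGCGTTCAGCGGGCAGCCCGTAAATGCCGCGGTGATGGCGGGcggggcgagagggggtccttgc
Hadha measured 10.58, 10.17 and 10.22 in Mock, 10.17, 10.14 and 10.18 with AAV-IFNα, and 10.75, 10.22 and 10.18 in the combination. Hadhb measured 10.23, 9.81 and 10.01, then 9.87, 9.62 and 9.70, then 10.39, 9.67 and 9.68 in the same order. In both genes replicate 1 was the highest array of Mock and of the combination, and all 3 groups overlapped.

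Auxiliary enzymes rearrange double bonds so that unsaturated chains can enter β-oxidation. Ech1, a dienoyl-CoA isomerase, had log2 values of 10.24, 9.73 and 10.13 in Mock, 9.62, 9.08 and 9.29 with AAV-IFNα, and 10.62, 9.54 and 9.60 in the combination. The AAV-IFNα arrays lay below Mock without overlap, by -0.70 (standard error 0.25), and missed the threshold (adjusted p = 0.078). In the combination the difference was -0.11 (adjusted p = 0.83), with replicate 1 above all Mock arrays and replicates 2 and 3 below them. Ech1 passed against Mock in the fit of only the groups compared (adjusted p = 0.029), with another quantile normalization (-0.84, adjusted p = 0.046) and once combination replicate 1 was left out (adjusted p = 0.017).

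The enoyl-CoA isomerases Eci1 and Eci2 differed from Mock by -0.30 and -0.33 with AAV-IFNα (adjusted p = 0.18 and 0.45), compared with 0.06 and -0.13 in the combination (adjusted p = 0.83 and 0.83). Eci2 spread widest of these enzymes in Mock, at 10.57, 9.06 and 10.07, against 9.48, 9.58 and 9.64 with AAV-IFNα. Mock replicate 2 lay below the AAV-IFNα arrays and both other Mock arrays above them, and Eci2 was called without Mock replicate 2 (-0.75, adjusted p = 0.023). Eci1 was called with another quantile normalization (-0.45, adjusted p = 0.045). The dienoyl-CoA reductases Decr1, of mitochondria, and Decr2, of peroxisomes, differed from Mock by -0.07 and 0.15 with AAV-IFNα (adjusted p = 0.80 and 0.54), compared with 0.25 and 0.31 in the combination (adjusted p = 0.39 and 0.27). Decr2 was thus among the 4 genes above 0 with AAV-IFNα, beside Cpt1a, Crot and Pex11a.

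Of 8 genes listed for peroxisomal import, oxidation and proliferation, 2 were called lower with AAV-IFNα (5.06% of all probe sets) and 1 in the combination (1.03% of all). Abcd2, an ATP-binding cassette transporter that carries very long chain acyl-CoA into the peroxisome (probe set TC1500002075.mm.2), had log2 values of 9.80, 9.11 and 9.46 in Mock, 8.58, 8.90 and 8.69 with AAV-IFNα, and 8.89, 8.60 and 8.59 in the combination. Every treated mouse lay below every Mock mouse, and the treated groups overlapped. The means were 9.46 ± 0.34 (SD, n = 3), 8.72 ± 0.16 (SD, n = 3) and 8.69 ± 0.17 (SD, n = 3). By limma the log2 difference from Mock was -0.73 with AAV-IFNα and -0.76 in the combination (standard error 0.17 for each, adjusted p = 0.012 and 0.023). The treated groups differed by -0.03 (95% interval -0.40 to 0.35, adjusted p = 0.98).

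The call of Abcd2 with AAV-IFNα ended without AAV-IFNα replicate 1 (-0.66, adjusted p = 0.051). In the combination it ended once Mock replicate 1 or 3 was left out (-0.59 and -0.76, adjusted p = 0.081 and 0.068) and once combination replicate 2 or 3 was (-0.72 and -0.71, adjusted p = 0.091 and 0.11). Abcd2 was the only gene of the 32 in which combination replicate 1 lay below all Mock arrays. Its relative Abcd3, which carries branched and long chains, differed from Mock by -0.31 with AAV-IFNα (adjusted p = 0.26), compared with 0.19 in the combination (adjusted p = 0.57). Abcd3 in the combination, at 10.72, 10.58 and 10.59, lay above 9.75, 10.41 and 10.23 with AAV-IFNα without overlap, a difference of 0.50 that did not pass the test (adjusted p = 0.24).

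Acaa1b, a peroxisomal thiolase (probe set TC0900003234.mm.2), had log2 values of 9.99, 9.30 and 9.65 in Mock, 8.65, 8.70 and 9.03 with AAV-IFNα, and 9.91, 8.99 and 9.36 in the combination. The AAV-IFNα arrays lay below every Mock array, and the combination overlapped with both. By limma the log2 difference from Mock was -0.85 with AAV-IFNα (standard error 0.23, adjusted p = 0.022) against -0.23 in the combination (adjusted p = 0.58), with 0.62 between the treated groups (95% interval 0.13 to 1.11, adjusted p = 0.24). The call ended once Mock replicate 1 or 3 was left out (-0.68 and -0.85, adjusted p = 0.086 and 0.057) and once AAV-IFNα replicate 1 or 2 was (-0.78 and -0.81, adjusted p = 0.077 and 0.078). Its near copy Acaa1a differed by -0.34 with AAV-IFNα (adjusted p = 0.24) and was called only without Mock replicate 2 (-0.56, adjusted p = 0.032). Probes for such copies may read both transcripts, and the files do not tell how far they do.

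Ehhadh, the peroxisomal bifunctional enzyme, measured 11.33, 10.63 and 10.80 in Mock, 10.22, 10.29 and 10.20 with AAV-IFNα, and 11.27, 10.10 and 10.33 in the combination. The AAV-IFNα arrays lay below Mock without overlap, by -0.68 (standard error 0.26), and missed the threshold (adjusted p = 0.088), whereas the combination ran from below the AAV-IFNα arrays to just under the highest Mock array. Ehhadh was called in the fit of only the groups compared (adjusted p = 0.030), as it was once combination replicate 1 was left out (adjusted p = 0.020). Hsd17b4, a second multifunctional enzyme, and Scp2, whose gene encodes a thiolase and a sterol carrier, differed from Mock by -0.03 and -0.06 with AAV-IFNα (adjusted p = 0.91 and 0.83), compared with 0.16 and 0.32 in the combination (adjusted p = 0.53 and 0.25). Pex11a, which promotes division of peroxisomes, had the highest difference with AAV-IFNα, 0.36 (95% interval -0.36 to 1.07, adjusted p = 0.48).

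**Figure D5:**
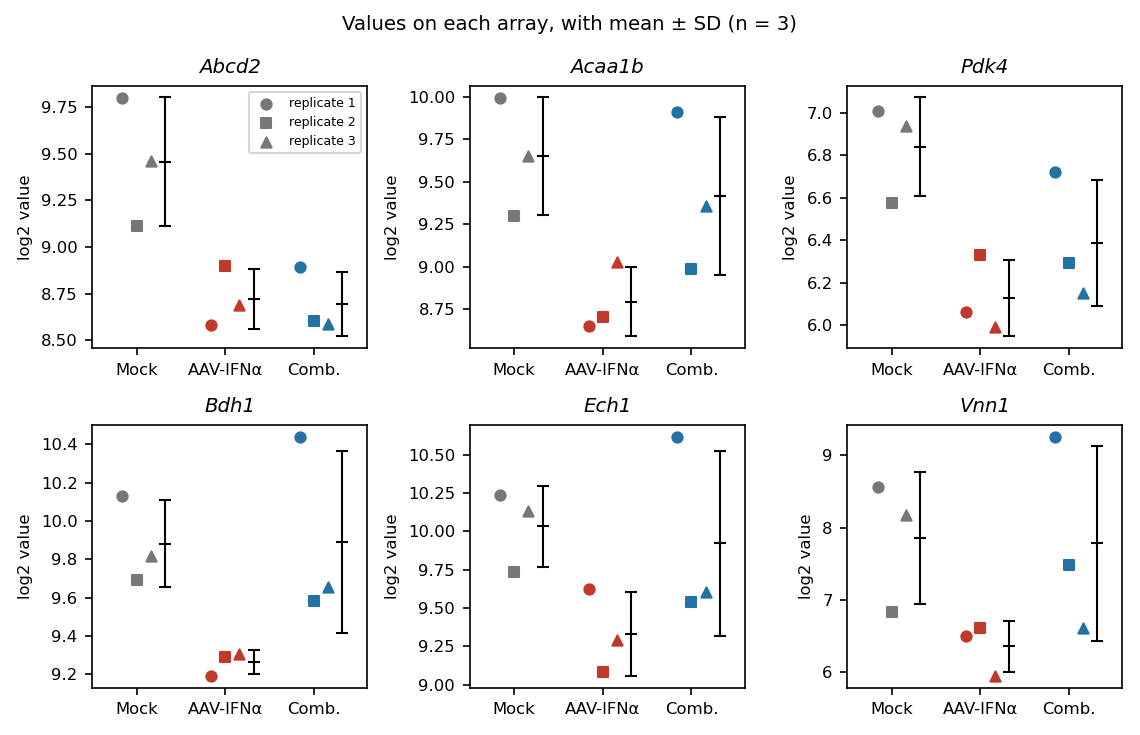
Log2 values of 6 genes on each array (symbols give the replicate number within a group) with mean ± SD (n = 3), each panel on its own axis, which does not start at 0. All treated mice lay below all Mock mice in Abcd2, and the AAV-IFNα mice lay below all Mock mice in the other 5 genes, where combination replicate 1 was the highest of its group.

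Ketone body formation was represented by Bdh1, which reduces acetoacetate to β-hydroxybutyrate. Bdh1 measured 10.13, 9.69 and 9.82 in Mock, 9.19, 9.29 and 9.31 with AAV-IFNα, and 10.44, 9.58 and 9.65 in the combination. The AAV-IFNα arrays lay below both other groups, which overlapped each other. The difference from Mock was -0.62 (standard error 0.20), just short of the threshold (adjusted p = 0.055, limma), and it passed under 7 of 17 alternatives, among them a filter above 6 (adjusted p = 0.049) and the fit without combination replicate 1 (adjusted p = 0.010). Combination minus Mock was 0.01 (95% interval -0.43 to 0.45). Between the treated groups Bdh1 had the smallest adjusted p of the 32 genes, with a difference of 0.63 (95% interval 0.19 to 1.07, adjusted p = 0.17).

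Pdk4, the kinase that shuts pyruvate dehydrogenase when fat is burned (probe set TC0600001810.mm.2), had log2 values of 7.01, 6.57 and 6.94 in Mock, 6.06, 6.33 and 5.99 with AAV-IFNα, and 6.72, 6.29 and 6.15 in the combination. The AAV-IFNα arrays lay below every Mock array, and combination replicate 1 lay among the Mock arrays with replicates 2 and 3 below them. By limma the log2 difference with AAV-IFNα was -0.71 (standard error 0.17, adjusted p = 0.014). In the combination the difference of -0.45 did not pass (95% interval -0.83 to -0.08, adjusted p = 0.15), and neither did 0.26 between the treated groups (adjusted p = 0.65). The call ended once Mock replicate 1 or 3 was left out (-0.63 and -0.66, adjusted p = 0.0567 and 0.0505) and once AAV-IFNα replicate 1 was (-0.68, adjusted p = 0.0508).

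Vnn1, a pantetheinase known as a PPARα target in mouse liver, had the widest spread in each group. It measured 8.57, 6.83 and 8.18 in Mock, 6.51, 6.62 and 5.96 with AAV-IFNα, and 9.26, 7.49 and 6.61 in the combination. The AAV-IFNα arrays lay below Mock without overlap, and the combination covered nearly the whole range. The difference of -1.50 (2.83-fold lower) had a standard error of 0.55 and did not pass the test (adjusted p = 0.079), but did so when Mock replicate 2 (-2.01, adjusted p = 0.023), combination replicate 1 (adjusted p = 0.020) or combination replicate 3 (adjusted p = 0.046) was left out. Between the treated groups the difference was 1.43 (adjusted p = 0.28). Fgf21, a hormone of the fasted liver, lay near the filter value at 5.75, 5.10 and 5.37 in Mock and 4.89, 5.26 and 4.84 with AAV-IFNα, and its difference of -0.41 did not pass (adjusted p = 0.21).

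Promoters were searched for the half-site AGGTCA and for DR1, written AGGTCANAGGTCA, which joins a pair of half-sites, on both strands of the window from 250 bases before to 50 after each start. The RefSeq table gave 31 promoters for 28 of the 34 genes, among 32851 promoters in all, and none for Abcd2. The half-site stood in 4 of the 31 (12.9%, those of Acadm, Acadvl, Cpt1a and Scp2), beside 16.3% of all promoters. No promoter of the 31 held DR1 exactly or with 1 mismatch (0.0396% and 0.554% of all). With up to 2 mismatches 2 did (6.45%, Etfa and Slc25a20), beside 3.86% of all. DR1 exactly or with 1 mismatch was thus rare in the windows of all promoters, unlike the half-site, and a match is only a description of the sequence.

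The upstream 250 bases of Acaa1b and Pdk4 are shown because both genes were called, and those of Etfa because it held one of the closest matches to DR1. They lie on the minus strand of GRCm38.p6 at chr9:119157094-119157343, chr6:5496279-5496528 and chr9:55512244-55512493, and are written toward the start of the gene. Capitals mark a window with the fewest mismatches to DR1, the first found where several had as few.
Acaa1b: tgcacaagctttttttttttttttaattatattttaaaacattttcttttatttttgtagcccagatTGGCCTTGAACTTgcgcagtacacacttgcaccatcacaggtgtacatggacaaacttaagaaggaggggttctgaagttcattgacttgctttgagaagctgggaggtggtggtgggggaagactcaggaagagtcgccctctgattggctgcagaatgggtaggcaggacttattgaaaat
Pdk4: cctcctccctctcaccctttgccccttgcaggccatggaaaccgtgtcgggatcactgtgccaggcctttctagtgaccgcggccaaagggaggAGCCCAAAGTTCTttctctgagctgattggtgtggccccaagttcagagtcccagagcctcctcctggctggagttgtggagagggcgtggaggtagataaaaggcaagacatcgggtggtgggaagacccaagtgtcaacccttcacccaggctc
Etfa: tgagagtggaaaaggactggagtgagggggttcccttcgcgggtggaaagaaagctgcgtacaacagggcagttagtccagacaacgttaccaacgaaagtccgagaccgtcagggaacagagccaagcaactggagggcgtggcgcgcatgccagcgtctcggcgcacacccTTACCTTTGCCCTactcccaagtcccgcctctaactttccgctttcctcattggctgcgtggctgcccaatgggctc
The window of Etfa, at -77 to -65 from the start, had 2 mismatches on its reverse strand. The windows of Acaa1b and Pdk4 had 4, which 79.8% of all promoters also reached.

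Other genes of the pathway were mixed. Of 32 further genes of fatty acid oxidation and ketone bodies, 27 were tested, with a median difference of -0.09 with AAV-IFNα. In that comparison 3 were higher and 3 lower, beside 11.2% and 5.06% of all probe sets. Acox2, the peroxisomal oxidase of branched chains and bile acid intermediates, rose in both treated groups, with log2 differences from Mock of 0.86 for AAV-IFNα and 0.64 for the combination (adjusted p = 2.3e-04 and 0.0065). Acsm5, a medium-chain acyl-CoA synthetase, rose by 0.73 and 0.88 (adjusted p = 0.0078 and 0.0062). Oxct1, which uses ketone bodies and is hardly expressed in hepatocytes, measured 3.72, 4.19 and 3.39 in Mock, 5.18, 4.72 and 5.22 with AAV-IFNα, and 3.59, 4.12 and 4.14 in the combination. It passed the filter at 5 only through the AAV-IFNα arrays, so it was tested because it was high there, and its call among the 3 higher ones carries no weight of its own. Hacl1, which shortens 2-hydroxy acyl-CoA in the peroxisome, was lower with AAV-IFNα (-0.83, adjusted p = 0.0068), with a difference of -0.25 in the combination (adjusted p = 0.43). Cpt1b and Aldh3a2 were the other genes called lower with AAV-IFNα.

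Of 14 receptors and coregulators listed, 11 were tested and none was called lower, where 5.06% of all probe sets were with AAV-IFNα. Ppara itself differed by -0.07 with AAV-IFNα (adjusted p = 0.83) and 0.23 in the combination (adjusted p = 0.49). Pparg, the related receptor of fat storage, was higher in both treated groups, by differences of 0.99 for AAV-IFNα and 0.69 for the combination (adjusted p = 7.2e-04 and 0.022). The call in the combination ended once Mock replicate 2 (0.52, adjusted p = 0.0502) or combination replicate 2 or 3 was left out (0.62 and 0.72, adjusted p = 0.094 and 0.070). Med1, a Mediator subunit that contacts nuclear receptors, rose with AAV-IFNα (0.68, adjusted p = 0.0090) and differed by 0.32 in the combination (adjusted p = 0.24). Of 15 genes of peroxisome biogenesis, 12 were tested and none was called in any comparison, with 0.25 as the highest and -0.24 as the lowest difference with AAV-IFNα.

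Outside the 34 genes, 12 other PPARα targets had a probe set and 11 were tested. With AAV-IFNα 8 were lower (5.06% of all probe sets), at a median difference of -1.04. In the combination 2 were lower (1.03% of all), at a median of -0.34. Acot3, a peroxisomal acyl-CoA thioesterase, measured 10.03, 10.46 and 9.99 in Mock, 6.40, 7.31 and 6.98 with AAV-IFNα, and 8.91, 7.68 and 8.34 in the combination, so the 3 groups were apart. The differences from Mock were -3.26 for AAV-IFNα and -1.85 for the combination (adjusted p = 3.9e-06 and 0.0016), and that between the treated groups was 1.42 (adjusted p = 0.019). Cyp4a10, a fatty acid ω-hydroxylase, was lower with AAV-IFNα (-2.52, adjusted p = 6.9e-04), differed by -0.31 in the combination (adjusted p = 0.67) and was higher by 2.20 in the combination than with AAV-IFNα (adjusted p = 0.0097). Acot1 and Acot4, thioesterases of cytosol and peroxisome, differed from Mock by -3.21 and -1.34 with AAV-IFNα (adjusted p = 0.0014 for both). In the combination Acot4 differed by -0.90 (adjusted p = 0.039), a call lost when Mock replicate 1 or 3, AAV-IFNα replicate 3, or combination replicate 2 or 3 was left out (-0.92 to -0.66, adjusted p from 0.051 to 0.14). Acot1 differed by -1.77 (adjusted p = 0.080) and passed once Mock replicate 2 (-2.35, adjusted p = 0.020) or combination replicate 1 (-2.49, adjusted p = 0.0079) was left out. The Acot genes are a cluster of near copies, which probes may not fully separate.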

How the data were processed

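Liver RNA of 9 mice was measured on 1 array per mouse, in 3 groups of 3 given by the sample titles. By the study's methods the arrays were Clariom S mouse and the RNA was total RNA, whereas the series design names another Affymetrix mouse array and the labels name polyA RNA. The deposited values are on the log2 scale, and the authors made them by RMA (background corrected, normalized, and summarised by probe set). The annotation names no genome build, so positions are given only for promoters, which come from RefSeq with GRCm38.p6. Probe sets above 5 in at least 2 samples of 1 condition (14715 of 22142) were tested two-sided with limma 3.58.1 in R 4.3.3, with 6 residual and 6.91 prior degrees of freedom and Benjamini-Hochberg adjustment over all of them. The methods give 3 mice per group, and each array is taken as 1 mouse. The number of arrays limits the precision, and an exact permutation test of 3 against 3 cannot go below p = 0.10. Array medians lay between 5.78 and 5.83.

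The genes and lists were chosen with earlier results of these data known. Named are any of the 34 genes and, of each other list of the pathway, up to 4 with the smallest p among those called, with Ppara named besides. As alternatives, the filter was dropped or raised to 6, the prior was made trended and robust, and the fit was repeated with only the groups compared, a replicate block, another quantile normalization, array weights, the probe set of highest variance, the B-statistic above 0, and each array left out. The fit was tested on simulated data with known changes. Python 3.11.15 with matplotlib 3.10.9 drew the figures.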

Additional observations from a re-analysis of the deposited data

Results flagged for a closer look

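In 3 of the named pathway genes outside the list of 34, the changes over Mock in the treated groups differed by the test of the difference itself, combination against AAV-IFNα, in which 324 of all 14715 probe sets were called lower (2.2%) and 58 higher (0.394%), markers of other cells among them. The difference was -1.09 for Oxct1 (adjusted p = 0.019, limma), but Oxct1 passed the filter only through the AAV-IFNα arrays, so it was tested because it was high there. For Acot3 it was 1.42 (adjusted p = 0.019) and for Cyp4a10 2.20 (adjusted p = 0.0097), with all 3 combination arrays above those of AAV-IFNα. Acot3 lost its call once AAV-IFNα replicate 1 (1.17, adjusted p = 0.093), combination replicate 1 (1.12, adjusted p = 0.086) or combination replicate 3 (1.40, adjusted p = 0.059) was left out, Cyp4a10 once AAV-IFNα replicate 2 was (2.01, adjusted p = 0.051), and Oxct1 once combination replicate 1 was (-0.91, adjusted p = 0.095). None of the 32 fatty acid oxidation and ketogenesis genes differed in this way at an adjusted p under 0.05. At an unadjusted p under 0.05, 7 of them did, each higher in the combination, beside 11.8% of all probe sets in either direction.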

How the results depend on the processing

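The 3 genes lower with AAV-IFNα than in Mock (5.06% of all probe sets) became 7 with only the groups compared (3.69% of all), 7 with another quantile normalization (7.92% of all), 5 with array weights (5.16% of all) and 0 by the B-statistic, and 0 to 9 with 1 array left out (2.61% to 5.22% of all). The 1 gene lower in the combination (1.03% of all) became 2 with array weights (Pdk4 beside Abcd2, 1.98% of all). It became 0 by the B-statistic, and 0 to 1 with 1 array left out (0.177% to 1.11% of all). No gene was called between the treated groups under any alternative. With AAV-IFNα the count was 3 without a filter (3.24% of all) and 4 with the filter at 6 (5.78% of all). It was 4 with a trended and robust prior (5.13% of all) and 3 with the probe set of highest variance (5.06% of all). Apart from the B-statistic, Abcd2 with AAV-IFNα lost its call only without AAV-IFNα replicate 1, and no called difference changed its direction.

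Replicate numbers were not taken as pairs of mice. Over all probe sets tested, deviations of arrays with the same number correlated from -0.13 to 0.22 (9 pairs), beside -0.25 to 0.19 for different numbers (18 pairs). Over the 32 genes they correlated from -0.42 to 0.63 beside -0.62 to 0.55. These values cannot decide whether mice of the same number were paired. With a replicate block, 8 genes were lower with AAV-IFNα (5.12% of all probe sets) and 1 in the combination (1.16% of all).

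The median over the 32 genes ranged from -0.41 to -0.17 with AAV-IFNα over all alternatives, and from 0.07 to 0.37 for the combination against AAV-IFNα. For the combination against Mock it ranged from -0.21 to 0.14, on both sides of 0, and was -0.11 with another quantile normalization and with array weights. Another quantile normalization moved the median of all probe sets from -0.02 to -0.07 with AAV-IFNα, and called 1399 higher and 1161 lower (54.6% higher), where 1655 were higher and 745 lower (69% higher) in the values as deposited. With 3 arrays in a group, a gene that misses the threshold is not shown to be unchanged.

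Between the treated groups, a trended and robust prior ended the calls of Acot3 (adjusted p = 0.053) and Cyp4a10 (adjusted p = 0.10), and the fit of only the groups compared ended that of Acot4 in the combination (adjusted p = 0.067). The causes were not tested.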
